A study of Mus musculus with 16 samples.

Results

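The MHC class I presentation and immunoproteasome genes are 10 genes of the 55359 in the count table: the heavy chains H2-K1, H2-D1 and H2-T3, their light chain B2m, the regulator Nlrc5, the peptide transporter subunits Tap1 and Tap2, the loading factor Tapbp, and the inducible proteasome subunits Psmb8 and Psmb9. Of these, 8 lie on chromosome 17, B2m lies on chromosome 2 and Nlrc5 on chromosome 8. They were taken by gene symbol, 1 row of the table for each, and all 10 passed the filter on low counts in every comparison. Their RNA was read in whole ileum and whole duodenum of adult male C57BL/6N mice fed a high fat diet. Mutant mice were Neurog3f/f; Villin-CreERT2: both copies of Neurog3 were floxed, and the tamoxifen-dependent recombinase CreERT2 was driven by the Villin promoter, which acts in the gut epithelium. Control mice were Neurog3f/f without the recombinase, so the floxed alleles and the diet were shared by all groups. Since the mutant mice alone had the recombinase, its presence and the loss of Neurog3 cannot be told apart. Tissue was taken 5 weeks after tamoxifen from 4 mice per genotype. Each mouse gave 1 library per tissue, and values of a group are listed in the order M136, M167, M168 and M177 for mutant mice and C133, C134, C151 and C154 for control mice.

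MHC class I molecules carry short peptides from inside a cell to its surface, where CD8+ T cells read them. The proteasome cuts the peptides, the TAP transporter moves them into the endoplasmic reticulum, tapasin helps to load them, and the loaded heavy chain leaves with its light chain. Interferons, interferon gamma above all, raise the genes of the pathway, in part through Irf1, and Nlrc5 acts as the class I transactivator. In the gut, epithelial cells as well as immune cells carry the pathway, and intraepithelial lymphocytes lie against the epithelium. Neurog3 starts the formation of enteroendocrine cells, the hormone cells of the gut, and the comparison of mutant with control mice addresses what each tissue transcribes without them.

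Promoter sequence was printed for 4 of the genes, because it shows what these promoters share and where they differ. RefSeq promoters (GRCm38.p6, 250 bases before to 50 after the start) were matched for 8 of the 10 genes in 9 windows, with 2 windows for H2-K1; Nlrc5 and Tap2 were not matched. Both strands were searched for 5 motifs, and a place that matched on both strands was kept. They were the interferon-stimulated response element GAAANNGAA, the gamma-activated sequence TTCNNNGAA, the X2 box TGACGC, the CCAAT box and the NF-kB motif GGGANNCCC. Capitals mark the matches.
H2-K1, chr17:34000353-34000478, minus strand: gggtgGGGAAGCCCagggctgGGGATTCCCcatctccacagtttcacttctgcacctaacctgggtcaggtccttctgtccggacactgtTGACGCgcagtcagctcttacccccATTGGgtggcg
H2-D1, chr17:35262903-35263028, plus strand: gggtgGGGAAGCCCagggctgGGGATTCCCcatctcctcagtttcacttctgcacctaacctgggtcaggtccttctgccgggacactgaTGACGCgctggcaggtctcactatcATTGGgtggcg
B2m, chr2:122147542-122147642, plus strand: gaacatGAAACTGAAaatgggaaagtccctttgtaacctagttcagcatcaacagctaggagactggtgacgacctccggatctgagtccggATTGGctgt
Psmb8, chr17:34198085-34198115, plus strand: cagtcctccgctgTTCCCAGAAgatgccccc
The H2-K1 and H2-D1 stretches were identical at 115 of 126 bases (91.3%) and held the same matches in the same order: the NF-kB motif at 2 places, the X2 box and a CCAAT box read on the opposite strand. The second NF-kB place matched on both strands. The NF-kB motif was in 3 of the 9 windows, all of them of H2-K1 and H2-D1, and in 5.66% of all 32851 promoters. TGACGC was in the same 3 windows and in 7.40% of all promoters. The letters GAAANNGAA lay in 1 window, that of B2m, 139 to 131 bases before the start, and in 8.56% of all promoters. Other forms of the interferon-stimulated response element were not searched. The windows without these letters, those of H2-K1 and H2-D1 among them, therefore cannot be said to lack the element. The gamma-activated sequence was in the Psmb8 window alone and in 8.30% of all promoters, and the CCAAT box was in 7 of 9 windows and in 37.4% of all. A match is a description of these letters and not a mapped binding site.

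The 16 libraries held 40.9 to 67.2 M counts, and levels are counts per M counts (CPM) after scaling of library sizes. Neurog3 had 1 count over the 4 mutant ileum libraries and 201 over the control ileum libraries, and 1 count in mutant duodenum against 549 in control duodenum. The summed level of 3 ileum markers was 749 to 2249.8 CPM in mutant ileum and 1383 to 2088 CPM in control ileum, with at most 5.97 CPM in any duodenum library. Summed, 4 duodenum markers gave 325 to 740 CPM in mutant duodenum and 256 to 947 CPM in control duodenum. They reached at most 96.35 CPM in any ileum library. Some libraries stood apart from their group. Transcripts of 10 exocrine pancreas genes summed to 8131, 182151, 39710.5 and 177279 CPM in mutant duodenum and to 28839, 3.73, 18364 and 1.88 CPM in control duodenum. Transcripts of 7 B cell and follicle genes were high in control mice C134 and C154, in both tissues. Results are therefore also given without M167 and M177 and without C134 and C154 where that changes them. The words rose and fell are kept for genes with an adjusted p under 0.05 in edgeR's quasi-likelihood test, which is the source of every adjusted p given without a tool and was adjusted over all tested genes.

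In the ileum all 10 genes fell in mutant mice, while 14.6% of the 18310 tested genes fell (19.0% rose). Their median log2 fold change was -1.47, against -0.03 for all tested genes. The largest decreases were those of Psmb8 and Nlrc5, with log2 fold changes of -2.27 (4.83-fold lower) and -2.00 (3.99-fold lower), and the smallest was that of H2-D1, with -0.51. In the duodenum 7 of the 10 fell and none rose, while 5.11% of the 17611 tested genes fell and 3.44% rose. The median there was -0.86, against 0.02 for all tested genes, and the 3 genes that did not pass the test were H2-K1, H2-D1 and Tapbp. These are whole tissues, so fewer cells of a type and less RNA per cell cannot be told apart.

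**Figure D1:**
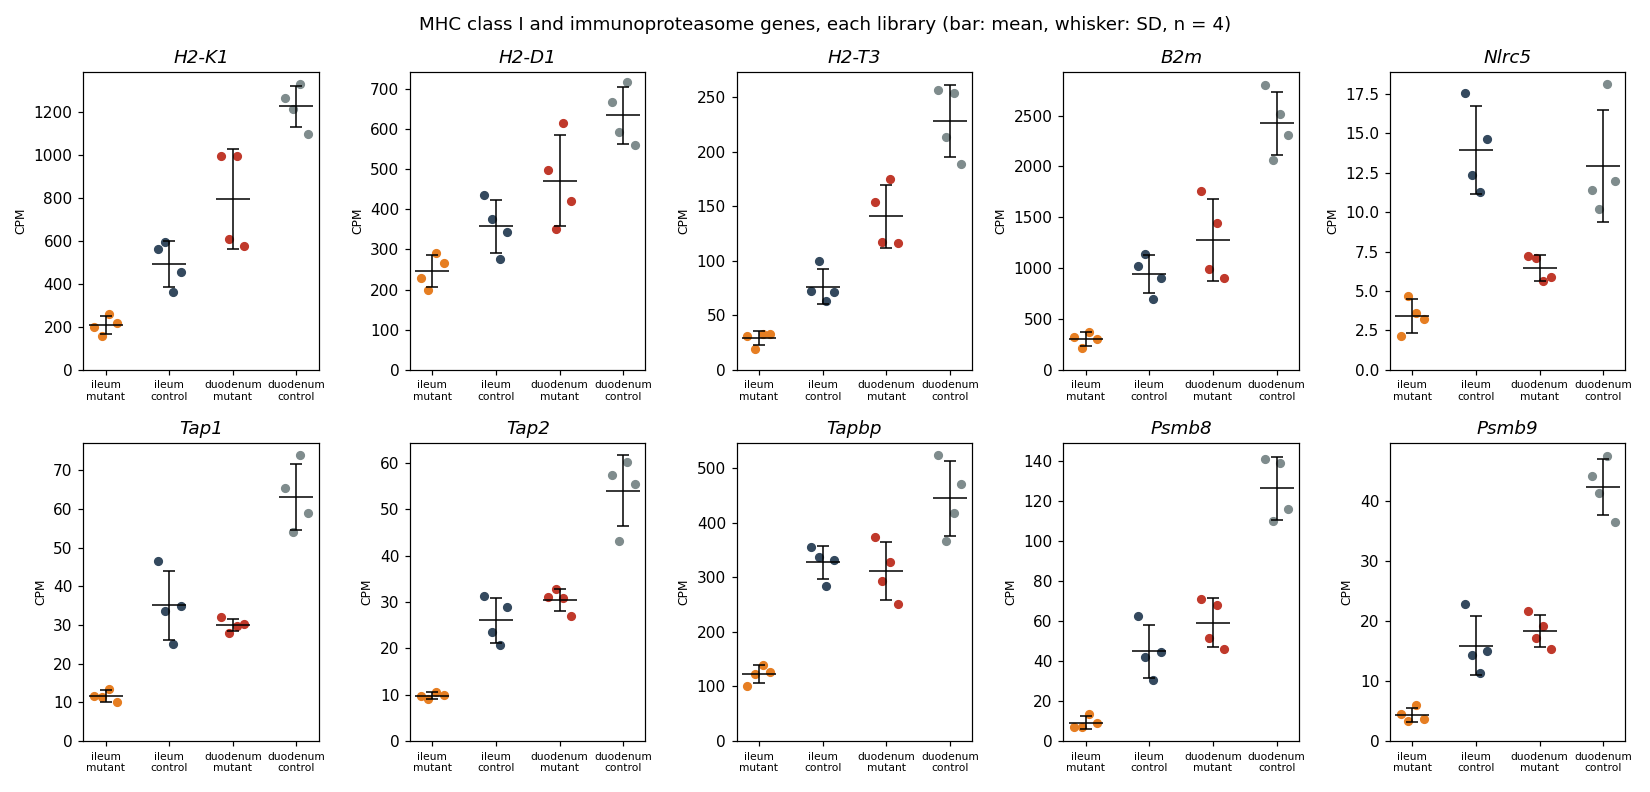
Level of each of the 10 genes in every library, in CPM on a linear axis from 0. Points are mice, the bar is the mean and the whisker the SD (n = 4 per group). The mutant points lie below the control points of the same tissue except for H2-D1 in both tissues and Tapbp in the duodenum, where the groups overlap. The share of all tested genes without such overlap is not given here.

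Psmb8 and Psmb9 encode the inducible catalytic subunits that replace their constitutive counterparts when the immunoproteasome forms. Psmb8 stood at 6.97, 6.84, 13.7 and 8.88 CPM in mutant ileum, against 62.3, 42.01, 30.4 and 44.5 CPM in control ileum. The highest mutant value was below the lowest control value (log2 fold change -2.27, SE 0.28, adjusted p = 0.000498). In the other tissue Psmb8 was at 70.9, 51.5, 67.96 and 46.1 CPM in mutant duodenum, against 141, 110.1, 139 and 116 CPM in control duodenum. The groups did not overlap there either (log2 fold change -1.08, SE 0.15, adjusted p = 0.00385), and mice M167 and M177 were lower than M136 and M168. Psmb9 levels were 4.58, 3.32, 5.96 and 3.59 CPM in mutant ileum, against 22.8, 14.4, 11.3 and 15.03 CPM in control ileum. Control mouse C133 was the highest and the mutant values stayed below all controls (log2 fold change -1.83, SE 0.24, adjusted p = 0.00039). Upstream in the gut, Psmb9 was measured at 21.7, 17.2, 19.2 and 15.4 CPM in mutant duodenum, against 44.1, 41.3, 47.4 and 36.5 CPM in control duodenum. This was the largest duodenal decrease of the 10 genes (log2 fold change -1.19, SE 0.13, adjusted p = 0.000773).

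Tap1 and Tap2 form the transporter that brings peptides into the endoplasmic reticulum. Tap1 had 11.7, 11.3, 13.5 and 9.96 CPM in mutant ileum, against 46.5, 33.7, 24.96 and 34.9 CPM in control ileum. The mutant values lay within a narrow range, below a wider control range (log2 fold change -1.56, SE 0.17, adjusted p = 0.000134). For the duodenum, Tap1 was counted at 32.01, 28.03, 29.6 and 30.1 CPM in mutant duodenum, against 65.5, 54.1, 73.8 and 59.05 CPM in control duodenum. The mutant mice again differed little among themselves (log2 fold change -1.06, SE 0.11, adjusted p = 0.000617). Levels of Tap2 reached 9.69, 8.97, 10.6 and 9.91 CPM in mutant ileum, against 31.4, 23.4, 20.8 and 28.9 CPM in control ileum. Its groups were well apart (log2 fold change -1.38, SE 0.14, adjusted p = 7.4e-05). Tap2 in the proximal tissue was at 31.1, 32.8, 30.9 and 27.1 CPM in mutant duodenum, against 57.5, 43.1, 60.3 and 55.5 CPM in control duodenum, again without overlap (log2 fold change -0.81, SE 0.12, adjusted p = 0.00476). The gene models of Tap1 and Psmb9 overlap by 212 bases at their starts, on opposite strands (GENCODE M21, GRCm38). The strand setting of the counting is not given in the sources used here, so reads from that stretch cannot be assigned to either gene here.

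Tapbp encodes tapasin, which holds the empty heavy chain at the transporter. It had 101, 123, 139 and 127 CPM in mutant ileum, against 355, 337, 285 and 332 CPM in control ileum. The mutant values were all far below the lowest control value (log2 fold change -1.39, SE 0.12, adjusted p = 4.08e-05). Tapbp in the duodenum gave 374, 293, 329 and 251 CPM in mutant duodenum, against 525, 366, 417 and 470.5 CPM in control duodenum. There M136 exceeded control mouse C134, and the threshold was missed (SE 0.16 around a log2 fold change of -0.50, adjusted p = 0.0753). It passed with DESeq2 (adjusted p = 0.0227), in a fit to all 16 libraries (adjusted p = 0.0255) and without M136 (adjusted p = 0.0418). In the other 14 of 17 alternatives it did not pass, with log2 fold changes as small as -0.33.

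H2-K1 and H2-D1 encode the classical heavy chains of this strain. H2-K1 was present at 198, 158, 259 and 216 CPM in mutant ileum, against 562, 596, 362 and 456 CPM in control ileum. The highest mutant stayed below the lowest control, C151 (log2 fold change -1.22, SE 0.18, adjusted p = 0.000691). H2-K1 had 994, 609, 997 and 575 CPM in mutant duodenum, against 1264, 1215, 1328 and 1099.7 CPM in control duodenum. All mutants were below all controls, but M136 and M168 came close to C154, and edgeR's test missed the threshold (log2 fold change -0.61, SE 0.21, adjusted p = 0.0866). DESeq2 gave an adjusted p of 0.0201. The other 16 of 17 alternatives made no call, with log2 fold changes as small as -0.29. H2-D1 changed least. Its ileal values were 228, 199, 290.5 and 266 CPM in mutant ileum, against 435, 376, 277 and 343 CPM in control ileum. Mutant mouse M168 was above control mouse C151, and the decrease was under the threshold (log2 fold change -0.51, SE 0.15, adjusted p = 0.0241). That call did not hold without C133, C134 or M136 (adjusted p of 0.0521 to 0.0750), without C134 and C154 (0.107) or without M167 and M177 (0.112). Duodenal H2-D1 stood at 499, 350.3, 616 and 421 CPM in mutant duodenum, against 668, 594, 717 and 559.7 CPM in control duodenum, with M168 above C134 and C154 (log2 fold change -0.42, SE 0.18, adjusted p = 0.154).

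H2-T3 encodes the nonclassical thymus leukemia antigen, a ligand of the CD8 alpha homodimer on intraepithelial lymphocytes. Its RNA was at 31.2, 19.3, 32.7 and 33.2 CPM in mutant ileum, against 72.03, 99.5, 62.8 and 71.3 CPM in control ileum. Mouse M167 was the lowest of the mutants, and no mutant approached a control (log2 fold change -1.36, SE 0.19, adjusted p = 0.000691). H2-T3 in the duodenum measured 154.1, 118, 175 and 116 CPM in mutant duodenum, against 257, 213, 254 and 189 CPM in control duodenum. M168 came nearest to the controls, and the groups did not overlap (log2 fold change -0.68, SE 0.16, adjusted p = 0.0277). This duodenal call did not hold without C133, C134, C151, M167 or M177 taken singly (adjusted p up to 0.0849), without C134 and C154 together (log2 fold change -0.85, adjusted p = 0.0795) or without M167 and M177 (-0.46, adjusted p = 0.125). B2m encodes the light chain that pairs with class I heavy chains. It had 322, 212, 373 and 301 CPM in mutant ileum, against 1022, 1136, 701 and 905 CPM in control ileum. The control mice were all well above the mutants (log2 fold change -1.61, SE 0.19, adjusted p = 0.000181). B2m was counted at 1758, 990.3, 1446 and 908 CPM in mutant duodenum, against 2801, 2059, 2517 and 2314 CPM in control duodenum. M136 and M168 were nearer to the controls than M167 and M177 (log2 fold change -0.91, SE 0.23, adjusted p = 0.0388), and the call did not hold when C133, C134, C151, C154, M167 or M177 was left out (adjusted p up to 0.107). It did not hold either without C134 and C154 together (log2 fold change -1.05, adjusted p = 0.142) or without M167 and M177 (-0.59, adjusted p = 0.115). Heavy chain genes resemble each other closely in sequence, so reads may be split among them in counting and the level of a single one is uncertain.

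Nlrc5 encodes the transactivator that is recruited to class I promoters. It had 2.12, 4.67, 3.61 and 3.23 CPM in mutant ileum, against 17.6, 12.4, 11.3 and 14.6 CPM in control ileum. Mouse M136 was lowest and the highest mutant had less than the lowest control (log2 fold change -2.00, SE 0.23, adjusted p = 0.000183). Nlrc5 was at 7.22, 7.10, 5.66 and 5.90 CPM in mutant duodenum, against 11.4, 10.2, 18.1 and 11.98 CPM in control duodenum. Control mouse C151 was far above the other controls, and the mutants were close together (log2 fold change -0.98, SE 0.19, adjusted p = 0.0145). The duodenal call did not hold without M167 and M177 (adjusted p = 0.0837), where 4 of the 10 genes were called.

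**Figure D2:**
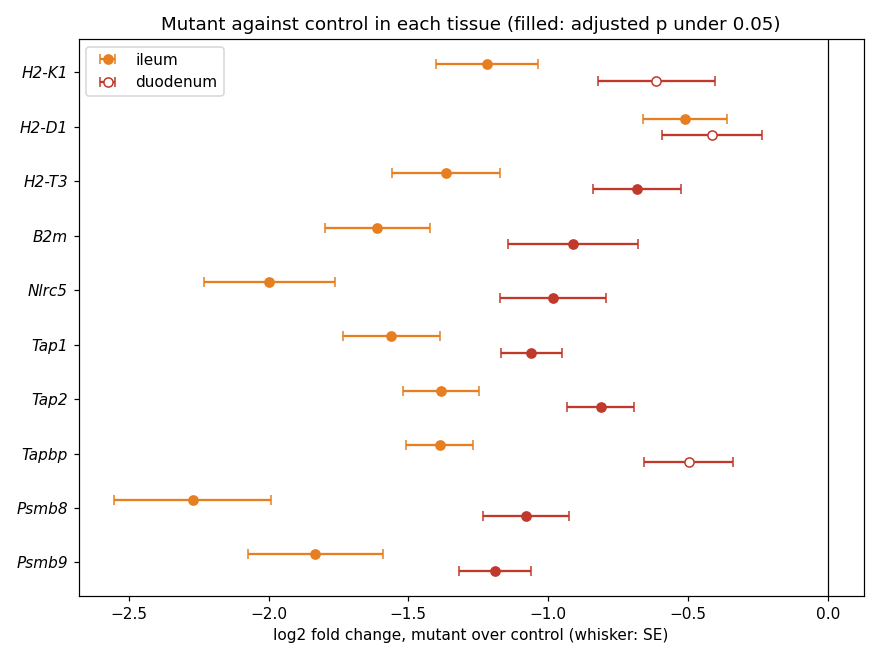
Log2 fold change of mutant over control for each gene in the ileum and in the duodenum, with its SE as whisker. Filled points passed the test: all 10 in the ileum, and 7 of 10 in the duodenum, where H2-K1, H2-D1 and Tapbp are open.

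Whether the decrease differed between tissues was tested as the ileal minus the duodenal log2 fold change in a fit to all 16 libraries. The difference was below 0 for all 10 genes, with a median of -0.68 against -0.06 for all tested genes. It passed the test for 3: Psmb8 (-1.21, adjusted p = 0.0377), Nlrc5 (-1.03, adjusted p = 0.0458) and Tapbp (-0.91, adjusted p = 0.0166). Of all 19289 tested genes, 4.13% passed in this direction. For the other 7 it lay between -0.70 for H2-T3 and -0.11 for H2-D1, without passing the test. With the mouse as a block 5 genes passed, the others being H2-T3 (adjusted p = 0.0436) and Tap2 (adjusted p = 0.0257). Not all of these calls held in the fits that left out mice. Calls over all genes, 1734 as reported, lay between 184 and 2009 when single mice were left out. None of the 10 passed without M136 or without C134 and C154, 1 passed without C133, C134, C151, C154 or M177 or without M167 and M177, and 2 passed without M167 or M168.

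Most of the 10 genes were lower in the ileum than in the duodenum in both genotypes. In mutant mice all 10 fell in the ileum relative to the duodenum (18.2% of all tested genes fell), with a median log2 fold change of -1.77, ileum over duodenum. In control mice 9 of 10 did (30.3% of all tested genes), with a median of -1.17. B2m averaged 302 ± 67.2 CPM in mutant ileum and 1276 ± 399.6 CPM in mutant duodenum (SD, n = 4 each), and 941 ± 186 CPM in control ileum against 2423 ± 314 CPM in control duodenum. For Psmb8 the means were 9.09 ± 3.19 CPM in mutant ileum and 59.1 ± 12.2 CPM in mutant duodenum, and 44.8 ± 13.2 CPM in control ileum against 126 ± 15.7 CPM in control duodenum. Log2 fold changes of Psmb8 between the tissues were -2.69 in mutant mice (adjusted p = 3.92e-05) and -1.49 in control mice (adjusted p = 0.000298). Nlrc5 was the exception in control mice, where its tissues overlapped: it averaged 13.96 ± 2.78 CPM in control ileum and 12.9 ± 3.53 CPM in control duodenum (log2 fold change 0.12, SE 0.20, adjusted p = 0.616). Without C151 that difference became 0.42 and passed the test (adjusted p = 0.043), and without C133 it was -0.04 and without C134 and C154 -0.0057. In mutant mice Nlrc5 averaged 3.41 ± 1.05 CPM in the ileum and 6.47 ± 0.807 CPM in the duodenum (log2 fold change -0.91, SE 0.24, adjusted p = 0.0134), a call lost without M136 (adjusted p = 0.0606) or M177 (0.0548). Tapbp in control mice (log2 fold change -0.43, SE 0.12, adjusted p = 0.0118) lost its call without C133, C151 or C154 (adjusted p of 0.0503 to 0.0548). Tap1, Psmb8 and Psmb9 lost theirs in control mice without C134 and C154 (adjusted p of 0.0914 to 0.151).

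Per kilobase of exon, B2m was the most abundant of the 10 genes in all groups and Nlrc5 the least. B2m had 351 ± 78.1 CPM per kb in mutant ileum, 1094 ± 216 in control ileum, 1483 ± 465 in mutant duodenum and 2817 ± 365 in control duodenum (SD, n = 4 each). Nlrc5 had 0.401 ± 0.124, 1.64 ± 0.327, 0.762 ± 0.0950 and 1.52 ± 0.415 CPM per kb in these groups. In mutant ileum the order was B2m, H2-D1, H2-K1, Tapbp, H2-T3, Psmb8, Tap2, Tap1, Psmb9 and Nlrc5. H2-D1 (95.4 ± 15.6 CPM per kb) stood above H2-K1 (70.8 ± 14.2 CPM per kb) there, with overlapping ranges, and the ranges of Psmb8, Tap2 and Tap1 overlapped with each other. In the other 3 groups H2-K1 came before H2-D1, and the ranges of this pair overlapped in control ileum and mutant duodenum. Tap2, Tap1 and Psmb9 overlapped with each other in both control groups, and Tap1 and Psmb9 in mutant duodenum.

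The inducible and constitutive catalytic subunits can be set against each other within a library, which needs no scaling between libraries. Psmb8 takes the place of Psmb5, Psmb9 that of Psmb6 and Psmb10 that of Psmb7. The count ratio of Psmb8 to Psmb5 was 0.610, 0.823, 1.20 and 0.693 in mutant ileum, against 7.45, 5.75, 4.32 and 5.93 in control ileum. It was 6.31, 5.06, 5.86 and 3.61 in mutant duodenum, against 11.4, 8.88, 12.04 and 10.8 in control duodenum. Mutant mice were below control mice without overlap in both tissues. On the log2 scale the mutant minus control difference was -2.84 in the ileum (means -0.31 ± 0.42 in mutant and 2.53 ± 0.32 in control mice) and -1.07 in the duodenum (2.35 ± 0.36 in mutant and 3.42 ± 0.19 in control mice; SD, n = 4). For Psmb9 to Psmb6 the differences were -2.37 in the ileum and -1.26 in the duodenum. For Psmb10 to Psmb7 they were -1.36 in the ileum and -0.71 in the duodenum. Each of the 6 comparisons gave p = 0.0286 in a two-sided exact permutation test, the smallest that 4 against 4 libraries allow, and 0.0286 after Benjamini-Hochberg adjustment over the 6. A count ratio is not corrected for length and shows unequal change of its 2 genes.

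**Figure D3:**
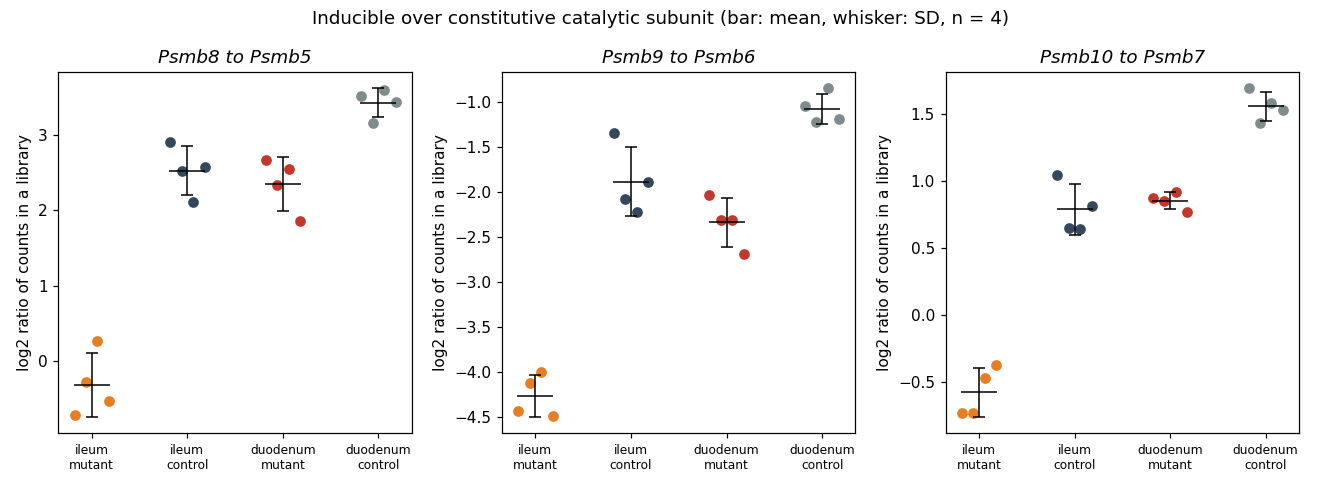
Log2 ratio of the counts of an inducible to its constitutive catalytic subunit in each library (points), with the mean and SD of each group (n = 4). Mutant libraries lie below the control libraries of the same tissue in all 3 panels, by 2.84 for Psmb8 to Psmb5 in the ileum and by 1.07 in the duodenum.

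Other genes of the pathway came from 6 lists with 64 members, of which 60 could be tested. In the ileum 19 fell and 18 rose in mutant mice, with a median of -0.11, where 14.6% of all tested genes fell and 19.0% rose. In the duodenum 9 fell and none rose, with a median of -0.22, where 5.11% of all tested genes fell and 3.44% rose. The duodenal count was 4, 4, 3 and 5 without C133, C134, C151 and C154, 16 without M168 and 4 without M177. It was 2 without C134 and C154 together and 3 without M167 and M177. Calls over all genes in the duodenum, 1506 as reported, lay between 476 and 2139 when single mice were left out. In the genotype by tissue comparison 2 of the 60 passed downward and 10 upward, against 4.13% and 4.86% of all tested genes. These 12 were 0 without C133 or C151, 1 without C134 or M136, 3 without C154 and 20 with the mouse as a block, and 0 without C134 and C154. The lists, split by role, went in different directions in the ileum.

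Among 14 further heavy chain genes, 10 fell in the ileum and 3 in the duodenum (14.6% and 5.11% of all tested genes fell). H2-T23, which encodes Qa-1, a ligand of CD94/NKG2A receptors, had 25.5, 25.2, 33.4 and 25.6 CPM in mutant ileum, against 99.6, 80.7, 58.4 and 69.8 CPM in control ileum. All mutants were below all controls (log2 fold change -1.46, SE 0.16, adjusted p = 0.000129). It fell in the duodenum too (log2 fold change -0.78, adjusted p = 0.023), as did H2-Q4 (-0.80, adjusted p = 0.0115) and H2-T24 (-1.10, adjusted p = 0.0184). The largest ileal decreases of the list were those of H2-M2 (-2.84, adjusted p = 0.000881), H2-Q7 (-2.58, adjusted p = 0.0027) and H2-Q6 (-2.58, adjusted p = 0.00324). These genes had low levels, with means of 0.226, 0.159 and 0.118 CPM in mutant ileum. Their means in control ileum were 1.68, 0.981 and 0.721 CPM. H2-T10, H2-T24, H2-Q2, H2-Q4, H2-T22 and the lipid-presenting Cd1d1 fell as well, by log2 fold changes between -1.90 for H2-T10 and -0.63 for H2-T22. H2-Q7 and H2-M2 fell more in the ileum than in the duodenum (difference -2.14, adjusted p = 0.0301 for H2-Q7 and -2.19, adjusted p = 0.0213 for H2-M2). Neither of these calls held without C133, without C151 or without C134 and C154.

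Psmb10, the remaining inducible catalytic subunit, and Psme1 and Psme2, which form the proteasome activator PA28, fell in both tissues. Log2 fold changes of Psmb10 were -0.56, adjusted p = 0.0162 in the ileum and -0.56, adjusted p = 0.00906 in the duodenum. Those of Psme1 and Psme2 were -0.52 and -0.47 in the ileum and -0.50 and -0.62 in the duodenum. The count of these 3 was 0 in both tissues without C134 and C154. In the ileum it was 0 without C133 and 1 without M177, and in the duodenum 1 without any of C133, C134, C151, C154, M167 or M177.

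The list of the constitutive proteasome core took the opposite course in the ileum. Its 15 genes are alpha and beta subunits and the assembly factor Pomp. Among them, Psmb5, Psmb6 and Psmb7 are the counterparts of inducible subunits, and the other subunits are not replaced. In mutant ileum 14 rose and none fell, with a median of 0.61, where 19.0% of all tested genes rose. Psmb5 was at 11.4, 8.31, 11.4 and 12.8 CPM in mutant ileum, against 8.35, 7.30, 7.02 and 7.48 CPM in control ileum. Mouse M167 was level with the highest control, and the other mutants were above all controls (log2 fold change 0.57, SE 0.14, adjusted p = 0.0092). Psmb6 (0.58, adjusted p = 0.0114) and Psmb7 (0.81, adjusted p = 0.000324) rose likewise, while Pomp gave 0.34, adjusted p = 0.125. The direction was the same under each library scaling tried, and 12 rose without C134 and C154. In the duodenum none of the 15 passed edgeR's test, with 2 at an unadjusted p under 0.05, 1 called lower by DESeq2 and none by limma-voom, and the median was 0.01. The ileal minus duodenal difference passed the test for 10 of the 15, all upward, where 4.86% of all tested genes passed upward. None of these 10 calls held without C133, without C151 or without C134 and C154, where 0 of the other pathway genes passed. At most 1 of them held without C134 or without M136, and at most 3 without C154. With the mouse as a block, other pathway genes gave 20 calls in this comparison, against 12 as reported. Between tissues all 15 were lower in the ileum in control mice (median -0.62, ileum over duodenum), where 30.3% of all tested genes fell. In mutant mice none passed edgeR's test between tissues (2 at an unadjusted p under 0.05, median 0.06).

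**Figure D4:**
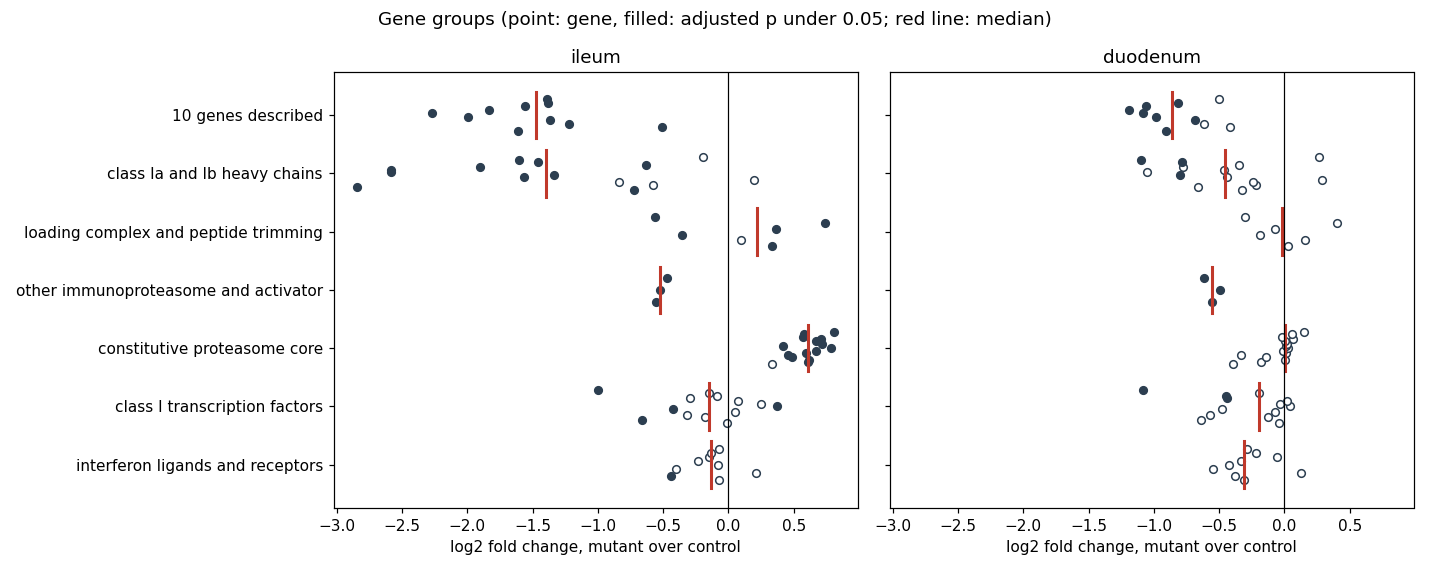
Log2 fold change of mutant over control for the 10 genes described and for the 6 lists of other pathway genes, in the ileum and in the duodenum. Each point is a gene, filled where it passed the test, and the red line is the median of the list: -1.47 for the 10 genes and 0.61 for the constitutive proteasome core in the ileum.

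Of 6 loading and trimming genes, the peptide-trimming protease Erap1 (-0.36, adjusted p = 0.00864) and Tapbpl, which encodes the peptide editor TAPBPR (-0.56, adjusted p = 0.0222), fell in the ileum. Calr (0.34, adjusted p = 0.0208) and Pdia3 (0.37, adjusted p = 0.0128), which encode chaperones of the loading complex, and the translocon gene Sec61a1 (0.74, adjusted p = 0.00112) rose. In the duodenum none of the 6 passed edgeR's test (2 at an unadjusted p under 0.05), against 1 with DESeq2 and none with limma-voom. Without C134 and C154, 1 of the 5 ileal calls was made, a rise. Among the transcription factors, Irf1, an interferon-induced activator, fell in the ileum (-0.66, adjusted p = 0.00673) and gave -0.64, adjusted p = 0.0629 in the duodenum. Rfx5 (-0.44, adjusted p = 0.0308) and Rfxank (-0.45, adjusted p = 0.0232), which belong to the complex that binds the X box of MHC promoters, fell in the duodenum. Of the subunits that bind the CCAAT box, Nfya fell (-0.42, adjusted p = 0.0151) and Nfyb rose (0.37, adjusted p = 0.0137) in the ileum. The interferon receptor gene Ifnar2 fell in the ileum (-0.44, adjusted p = 0.0256), the single call among 9 tested receptor and kinase genes, and 0 of the 9 were called when C133, C134, C154 or M177 was left out. In the duodenum none of the 9 passed edgeR's test, with 4 at an unadjusted p under 0.05, 3 called by DESeq2 and none by limma-voom. The interferon genes themselves were too rare to test. Ifng had 0 counts over the mutant ileum libraries, which allows up to 3 counts, against 9 in control ileum, and 6 in mutant duodenum against 16 in control duodenum. Ifnb1 and Ifnl2 had 0 counts in all libraries.

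Most tested markers of immune cells were lower in mutant than in control mice, as the 10 genes were. Of all tested genes, 14.6% fell in the ileum and 5.11% in the duodenum. All 11 markers of T cells and intraepithelial lymphocytes fell in the ileum, with a median of -2.23, and 5 fell in the duodenum, with a median of -0.88. Their summed level was 17.4 to 31.6 CPM in mutant ileum, against 72.2 to 112 CPM in control ileum, and 86.3 to 189 CPM in mutant duodenum, against 176 to 308 CPM in control duodenum. The duodenal count of 5 was 1 without C134 or M177, 2 without C151, C154 or M167, 9 without M168, and 0 without C134 and C154 or without M167 and M177. Duodenal calls over all genes, in either direction, changed in these fits too. They were 1506 as reported, 476 to 2139 without single mice, 200 without C134 and C154 and 445 without M167 and M177. Of 8 macrophage and dendritic cell markers, 8 fell in the ileum and 7 in the duodenum (5 and 4 without C134 and C154). They summed to 96.5 to 152 CPM in mutant ileum, against 174 to 238 CPM in control ileum, and to 225 to 269 CPM in mutant duodenum, against 336 to 406 CPM in control duodenum. No marker of either list was at 0 in any library. Of 4 plasma cell markers 3 fell in the ileum and none was called in the duodenum by edgeR, DESeq2 or limma-voom, where 3 had an unadjusted p under 0.05 in edgeR's test. They summed to 448 to 791 CPM in mutant ileum, against 922 to 1394 CPM in control ileum, and to 1063 to 1477 CPM in mutant duodenum, against 1383 to 1721 CPM in control duodenum. Of this list Xbp1 had higher means in mutant mice, 242 against 207 CPM in the ileum and 319 against 260 CPM in the duodenum. Of 3 endothelial markers 2 fell in the ileum, with sums of 70.99 to 88.4 CPM in mutant ileum and 97.5 to 117 CPM in control ileum, and 1 fell without any of C133, C134, C154, M136, M168 or M177. None of the plasma cell or endothelial markers was called in the ileum without C134 and C154. Of 4 smooth muscle markers 1 rose in each tissue and none fell, with medians of 0.22 in the ileum and 0.48 in the duodenum. Of all tested genes, 19.0% rose in the ileum and 3.44% in the duodenum. All 6 enteroendocrine markers fell in both tissues. The 7 B cell and follicle markers summed to 3.84, 5.92, 6.99 and 4.27 CPM in mutant ileum, against 8.23, 138, 10.9 and 158 CPM in control ileum, and to 9.01, 10.00, 24.1 and 9.36 CPM in mutant duodenum, against 10.6, 50.5, 11.3 and 86.2 CPM in control duodenum. Of these 7 markers 1 was at 0 in the duodenum of M136 and 3 in that of M177. None of 5 epithelial markers passed edgeR's test in either tissue, with 2 at an unadjusted p under 0.05 in the ileum and 0 in the duodenum; DESeq2 called 1 in the ileum and limma-voom none. They summed to 6751 to 8993 CPM in mutant ileum, against 7209 to 8409 CPM in control ileum, and to 6091 to 9076 CPM in mutant duodenum, against 8266 to 9425 CPM in control duodenum. The part of these cell types in the class I result was not tested.

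**Figure D5:**
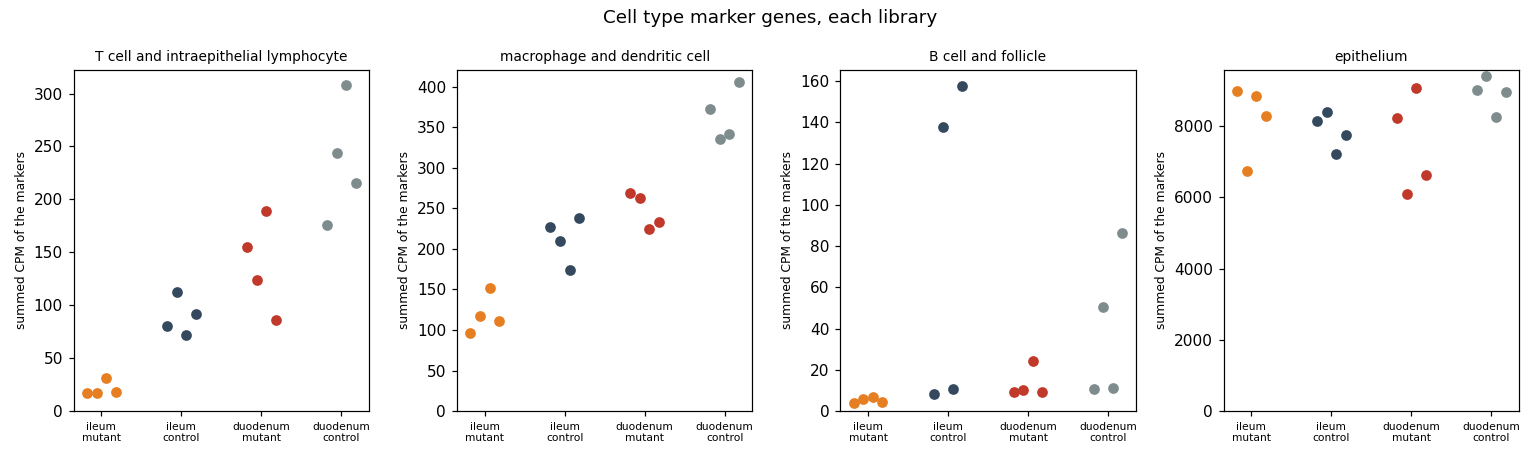
Summed CPM of the marker genes of 4 cell types in each library, on a linear axis from 0. T cell and macrophage sums are lower in mutant than in control ileum without overlap, B cell sums are high in 2 control mice, C134 and C154, and epithelial sums overlap between mutant and control in both tissues.

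Within groups the 10 genes varied together to different degrees. After each gene was centred on its group, Pearson's r of a gene with the mean of the other 9 over the 16 libraries was highest for Psmb8 (0.941) and H2-K1 (0.859) and lowest for Nlrc5 (0.239). Among pairs, H2-K1 and B2m had the highest r (0.930), and H2-T3 and Nlrc5 the lowest (-0.24). In mutant duodenum the centred mean of the 10 genes was 0.23 in M136, -0.15 in M167, 0.16 in M168 and -0.24 in M177 on the log2 scale. M167 and M177 are the mice with the highest pancreas transcripts there, and their part in this was not tested. In mutant ileum the same mean was highest in M168 (0.29) and lowest in M167 (-0.20), and in control ileum it was highest in C133 (0.29) and lowest in C151 (-0.36). Among 14239 other genes with a mean of at least 1 CPM, those most like the centred mean of the 10 were the heavy chain genes H2-T22 (r = 0.923) and H2-T23 (r = 0.899). Then came Gm12070 (r = 0.865), Abhd16a (r = 0.865), Gm1840 (r = 0.864), B4galt3 (r = 0.849), Naif1 (r = 0.845) and Gpr137 (r = 0.843). All genes of a library share its depth and its piece of tissue, and the 16 libraries come from 8 mice. These values are therefore descriptions.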

How the data were processed

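Whole ileum and duodenum of 8 mice were profiled by stranded total RNA sequencing after depletion of ribosomal RNA, per the labels' protocols. The authors deposited 1 table of unnormalized read counts for 55359 Ensembl identifiers in 16 libraries. The submitters' processing notes name the mm39 assembly and the tools HTSeq 0.6.1p1, STAR 2.5.3a, Bowtie2 2.2.8 and cutadapt 1.10. How strand was counted, and with which annotation release, is not given in the sources used here. GENCODE M21, built on the earlier GRCm38 assembly, gave names for 52083 identifiers and exon lengths; unnamed ones held 1.02% of counts.

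Groups follow the genotype and tissue in the labels. The 8 numbers in the titles occur once per tissue and were read as mouse numbers. Centred expression of the 2 libraries with the same number correlated in every mouse (r of 0.221 to 0.481, all over 0.1), and matched its own number best in 7 of 8 mice (M168 matched another mouse at 0.26, against 0.253 for itself), so the numbers were taken to pair the tissues. No libraries were identical. The 40.9 to 67.2 M counts per library set the counting error, and a count of 0 over a group allows up to 3.

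Low counts were filtered with filterByExpr, library sizes were scaled by TMM, and genes were tested with edgeR 4.0.16 (robust quasi-likelihood F test) with limma 3.58.1 and R 4.3.3, with Benjamini-Hochberg adjustment over all tested genes and a threshold of 0.05. Each genotype comparison used the 8 libraries of its tissue, each tissue comparison the 8 of its genotype, and the genotype by tissue comparison all 16. Count ratios had a pseudocount of 0.5. The fits were checked on simulated counts. The 10 genes and all lists were chosen with earlier results of these data known. All 10 are named, as are called genes of the lists, up to 4 uncalled ones per list, and the 8 genes most like the 10. A gene that meets the rule is not reported here. Alternatives were DESeq2 size factors, the DESeq2 1.42.0 Wald test, limma-voom, other filters, scaling without pancreas genes, all libraries in 1 fit, mice left out, and the mouse as a replicate block.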

Additional observations from a re-analysis of the deposited data

Results flagged for a closer look

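The H2-T3 level of mutant mouse M167 in the ileum, 19.3 CPM, stood far from the other mutant ilea, which had 31.2, 32.7 and 33.2 CPM; 52 groups of 4 libraries were searched for such a sample, and chance gives about 1 in 20. The decrease in mutant mice differed between tissues for 3 genes in edgeR's genotype by tissue test. The ileal minus duodenal log2 fold change was -1.03 for Nlrc5 (adjusted p = 0.0458), -0.91 for Tapbp (adjusted p = 0.0166) and -1.21 for Psmb8 (adjusted p = 0.0377), and at least 1 of these calls was lost in each fit that left out a mouse.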

How the results depend on the processing

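Over the 10 genes and 5 comparisons the alternative fits gave 750 fold changes. In 688 the direction and the side of the threshold stayed as reported, in 51 a call was lost, in 9 a call was gained, and in 2 the sign changed. Both sign changes were those of Nlrc5 between tissues in control mice, which became -0.042 without C133 and -0.0057 without C134 and C154, against 0.42 and a call without C151. The ileal decrease was called for 9 or 10 genes throughout. In the duodenum the 7 calls became 4 without M167 and M177 and lay between 5 and 8 when single mice were left out. For the genotype by tissue comparison the 3 calls became 1 without a low count filter, 1 without M167 and M177, 0 without C134 and C154, and 0 to 2 without single mice. With the mouse as a replicate block 5 genes passed, and other pathway genes went to 20 from 12; the block changed no other count by over 1.5 times except that of all genes, below. Other pathway genes called in the duodenum, 9 as reported, were 19 with DESeq2, 17 with all 16 libraries in 1 fit, 2 without C134 and C154, 3 without M167 and M177, and 3 to 16 without single mice. By tissue their 12 calls became 0 without C134 and C154 and 0 to 17 without single mice. Calls over all genes were 1506 in the duodenum (200 to 2955 over the alternatives), 6146 in the ileum (4067 without C134 and C154) and 1734 by tissue (22 without C134 and C154, 4027 with the block). The subunit ratios stayed lower in mutant mice, but with 2 mice fewer in a group the exact permutation test cannot go below p = 0.0667. Without C134 and C154 the ileal differences were -2.82 for Psmb8 to Psmb5, -2.47 for Psmb9 to Psmb6 and -1.42 for Psmb10 to Psmb7, and the duodenal ones -1.20, -1.39 and -0.78. Without M167 and M177 they were -2.75, -2.33 and -1.39 in the ileum and -0.82, -1.09 and -0.66 in the duodenum. The cause of these changes was not tested, beyond the smaller number of samples in fits that leave mice out.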
